A study of Homo sapiens with 6 samples.

Results

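The numbered LINC genes are genes, mostly of long noncoding RNAs, whose symbol in the deposited table is a five-digit number after the prefix LINC. Of the 27942 genes in the deposited table, 1799 had such a symbol, 526 of these had at least 1 count, and 115 were chosen by a mean raw count of 10 or more over the 6 libraries. Those 115 genes are described here. RNA was sequenced from HCT116, an established human colon carcinoma line with functional p53, grown in RPMI medium with fetal bovine serum. OXA cells received oxaliplatin at 0.5 µM for 24 h, a dose that the labels give as the IC50, and NT cells received no drug. Each group had 3 libraries of stranded, poly(A)-selected RNA. The sources do not say whether these came from separate cultures, so p-values measure the spread between the libraries, which may be technical. The medium held penicillin and streptomycin according to the labels, whereas the methods of the study exclude antibiotics.

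Long intergenic noncoding RNAs are transcribed by RNA polymerase II and are mostly capped, spliced and polyadenylated like mRNAs, but have no long open reading frame. Most are made at low levels and in few cell types, some act on the gene next to them, and a few encode small peptides. Oxaliplatin is a platinum drug that crosslinks DNA, and p53 is a transcription factor that is stabilized after DNA damage and induces both protein-coding and noncoding targets.

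Library totals lay between 32979521 and 40967880 counts. NT library 1 stood furthest from its group, with a root mean square deviation of 0.38 on the log2 scale over all genes tested, against 0.213 to 0.281 in the other libraries, and 0.337 over the LINC genes, against 0.229 to 0.315. Of the epithelial markers, EPCAM, CDH1, KRT8, KRT18 and KRT19 were abundant and VIL1 was low, at 39 to 95 raw counts. PTPRC and PECAM1, markers of leukocytes and endothelium, had at most 2 and 7 raw counts, COL3A1 at most 9, COL1A1 107 to 273 and CD68 152 to 237. The p53 targets CDKN1A and MDM2 rose in OXA with log2 fold changes of 2.93 and 2.22 (edgeR adjusted p = 0.000445 for both).

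In the reference annotation (GENCODE release 44, GRCh38), 114 of the 115 genes were typed as lncRNA and 1, LINC00672, as protein-coding under the name LASP1NB. GENCODE listed 10 of the 115 under another symbol, among them LINC01578 as CHASERR, LINC00346 as PRECSIT and LINC01184 as SLC12A2-DT. The genes lay on 23 chromosomes, and 95 were intergenic with respect to protein-coding genes. A further 9 overlapped a protein-coding gene on the other strand, 4 overlapped one on the same strand, and 7 started within 1000 bases of the start of one on the other strand. Merged exons had a median length of 4125 bases (713 to 33198), and 13 genes had a single merged exon. A stretch of at least 200 bases with at least 95% identity to another gene was found in 20, whose reads may have been shared between copies, and 50 shared exon bases with a gene on the other strand. The libraries were stranded, but the strand setting of the counting is not given in the sources used here, so reads of such pairs may not have been told apart.

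A few promoters are printed for the genes that carry the comparison below. LINC00294 and LINC00886 are the genes that passed the threshold, LINC00346 is the only one of the 13 promoters found for the genes past it in either fit that held a p53 half-site, and LINC02458 is a lower gene whose protein-coding neighbor was also lower. Each is 300 bases of RefSeq (GRCh38.p14) on the gene's strand, from 250 before the RefSeq start to 50 after it. Capitals mark a motif found on either strand. The motifs were the CCAAT box, which reads ATTGG when it lies on the other strand, the p53 half-site and the TATA box, searched as TATAAA. They cover chr11:33075900-33076199 (plus strand), chr3:156817013-156817312 (minus), chr13:110870259-110870558 (minus) and chr12:89019643-89019942 (minus), in the order printed.
LINC00294: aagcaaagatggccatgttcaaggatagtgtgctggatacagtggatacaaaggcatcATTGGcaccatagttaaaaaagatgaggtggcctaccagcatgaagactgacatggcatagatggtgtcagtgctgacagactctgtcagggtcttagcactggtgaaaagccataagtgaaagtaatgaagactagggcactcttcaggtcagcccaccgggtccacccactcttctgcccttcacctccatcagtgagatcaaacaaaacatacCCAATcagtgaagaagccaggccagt
LINC00886: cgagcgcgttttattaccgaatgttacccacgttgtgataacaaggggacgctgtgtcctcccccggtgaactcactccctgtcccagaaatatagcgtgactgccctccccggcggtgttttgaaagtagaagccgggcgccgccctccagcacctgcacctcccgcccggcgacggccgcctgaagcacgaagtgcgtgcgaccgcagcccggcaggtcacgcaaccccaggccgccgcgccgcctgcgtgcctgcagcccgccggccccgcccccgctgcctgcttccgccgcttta
LINC00346: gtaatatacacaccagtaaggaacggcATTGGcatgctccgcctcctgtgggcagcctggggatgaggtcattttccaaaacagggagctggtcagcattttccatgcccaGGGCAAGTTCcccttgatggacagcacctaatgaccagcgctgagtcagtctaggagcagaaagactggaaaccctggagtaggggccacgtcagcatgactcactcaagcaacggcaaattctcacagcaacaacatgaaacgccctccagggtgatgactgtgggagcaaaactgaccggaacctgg
LINC02458: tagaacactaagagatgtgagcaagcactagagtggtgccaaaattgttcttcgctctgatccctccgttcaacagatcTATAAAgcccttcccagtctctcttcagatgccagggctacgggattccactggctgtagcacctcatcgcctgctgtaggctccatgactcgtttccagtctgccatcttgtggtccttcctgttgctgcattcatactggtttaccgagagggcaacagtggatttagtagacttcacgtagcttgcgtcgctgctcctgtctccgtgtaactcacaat

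The half-site of LINC00346 began 139 bases before the start. The LINC00294 window held CCAAT boxes at -192 and +25, and the LINC02458 window a TATAAA match at -171. The LINC00886 window held none of the motifs. Of the 115 genes, 82 were matched in the promoter table and 80 of those windows lay at the GENCODE gene. A p53 half-site, searched on both strands as the named consensus without mismatches, was present in 4 of the 80 (5%), against 6.54% of all 27305 promoters of the table. The other 3 were LINC00839, LINC01006 and LINC01119, with log2 fold changes of -0.03, 0.33 and 0.77 and edgeR adjusted p of 0.923, 0.579 and 0.328. None of the 80 held a full p53 site, a pair of half-sites with at most a short spacer between them, against 0.0293% of all promoters. A CCAAT box was present in 46.2% of the 80 and 35.7% of all promoters, and a TATAAA match anywhere in the window in 13.8% and 12%. The median GC content was 61% against 58.3% in all promoters. These matches are letters in a window and were not compared with binding.

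The numbered LINC genes were a small part of the RNA. Together they took 0.0447%, 0.0455% and 0.0449% of the counts in NT libraries 1 to 3, and 0.0469%, 0.0479% and 0.0461% in OXA libraries 1 to 3. The OXA shares were all above the NT shares, and this sum was given no test. Mean raw counts ran from 10.2 to 1613 with a median of 44, so that 64 of the 115 genes had a mean under 50 and 33 had 100 or more. The 5 most abundant held 31.8% of the counts of the group. The choice used the level alone, over all 6 libraries. Just inside the limit were LINC02036 (mean 11.17), LINC00698 (10.33) and LINC02593 (10.17), and just outside it LINC02405 (9.833), LINC01504 (9.667) and LINC00926 (9.667). Another 411 numbered LINC genes had counts but a lower mean, and 1273 had none.

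**Figure D1:**
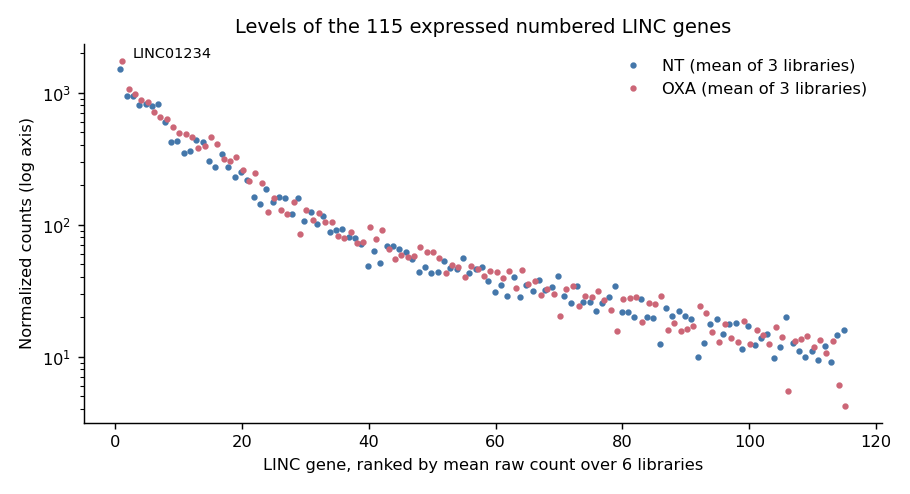
Mean normalized counts (3 libraries, log axis) of each of the 115 numbered LINC genes in NT (blue) and OXA (red), ranked by mean raw count over the 6 libraries. Levels fell from LINC01234, with a mean raw count of 1613, to genes near 10, and for most genes the blue and red points lie close together.

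The most abundant gene was LINC01234, described as elevated in several carcinomas. Its raw counts were 1665, 1364 and 1552 in NT and 1740, 1603 and 1756 in OXA. The groups overlapped after normalization, and the log2 fold change was 0.20 (SE 0.12, edgeR adjusted p = 0.392). LINC00511, from the gene desert near SOX9, had 925, 817 and 1142 raw counts in NT against 988, 962 and 1237 in OXA. After normalization all 3 OXA libraries were above all 3 NT libraries, at 1073 ± 26.9 against 946 ± 96.6 normalized counts (SD, n = 3), with a log2 fold change of 0.18 (SE 0.11, edgeR adjusted p = 0.388). LINC00963, a lncRNA studied in prostate cancer, had a low value in NT library 1, with 652 raw counts against 988 and 1249 in the other NT libraries and 830 to 1212 in OXA. Its log2 fold change of 0.05 (SE 0.20, edgeR adjusted p = 0.909) turned to -0.14 without that library.

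None of the 10 genes with the highest mean counts passed the threshold in either fit. LINC01578 came closest. Known as CHASERR, it is a noncoding RNA that restrains the chromatin remodeler gene CHD2, with which it shares exon bases on the same strand. It had 898, 703 and 876 raw counts in NT against 616, 563 and 778 in OXA. The groups did not overlap after normalization, at 816 ± 94.8 against 658 ± 40.4 (SD, n = 3). Its log2 fold change was -0.31 (SE 0.12, edgeR adjusted p = 0.198, and just above the threshold with the replicate block described below), while that of CHD2 was 0.15 (SE 0.09, edgeR adjusted p = 0.407). LINC01963 was also lower in all OXA libraries, at 720 ± 11.2 against 790 ± 28.3, but with a log2 fold change of -0.13 (adjusted p = 0.485 in edgeR). The log2 fold changes of the other 5, LINC01184, LINC01128, LINC00467, LINC01123 and LINC01106, lay between 0.05 and 0.36 with edgeR adjusted p of 0.33 or more. LINC01184 starts 594 bases from SLC12A2, the gene of a sodium-potassium-chloride cotransporter, on the other strand, and the log2 fold changes of the pair were 0.12 and -0.04. LINC01123 and LINC01106 share 2256 bases at 99.5% identity, so their counts are uncertain.

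The order changed when levels were divided by length. Per kb of merged exon, LINC01963 was highest in NT, at 251 normalized counts per kb, followed by LINC01106 (140), LINC00857 (139), LINC01123 (129) and LINC01578 (126). LINC01234, first by counts, had 125 per kb, and LINC00511, with 27664 bases of merged exon, had 34.2.

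In the comparison of OXA with NT, 112 of the 115 genes passed the filter on low counts. LINC00294 and LINC00886 were higher in OXA with an adjusted p under 0.05 (edgeR quasi-likelihood test, Benjamini-Hochberg over 13727 genes) and 0 were lower. That was 1.79% of the LINC genes tested higher, against 2.78% of all genes tested, and 0% lower, against 2.29%. At an unadjusted p under 0.05, 13 LINC genes were higher (11.6%, against 10.7% of all genes) and 6 lower (5.36%, against 11.1%). Both called genes also had a fold change over 1.5. In bulk RNA such as this, fewer cells that express a gene and less of its RNA per cell cannot be told apart. For the lower direction, DESeq2 called 1 gene, LINC02458, and limma-voom called 1, LINC01844.

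LINC00294 had 286, 296 and 346 raw counts in NT against 423, 420 and 523 in OXA. Every OXA library was above every NT library, and the libraries of a group lay close together, at 305 ± 11.9 normalized counts in NT and 461 ± 4.73 in OXA (SD, n = 3). Both SDs are below counting error alone, which is near the square root of the count. They therefore do not measure the precision of this gene. The log2 fold change was 0.59 (SE 0.12, edgeR adjusted p = 0.0318). LINC00294 is a single-exon RNA of 3306 bases (chr11:33076149-33079454, plus strand) that lies inside TCP11L1 on the same strand, in sequence that is intronic to TCP11L1, and shares exon bases on the other strand with CSTF3 and the pseudogene PIGCP1. TCP11L1 itself rose by nearly the same amount, with a log2 fold change of 0.61 (SE 0.11, edgeR adjusted p = 0.0258). The part of TCP11L1 intron reads in the LINC00294 count was not tested.

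LINC00886 had 55, 43 and 49 raw counts in NT against 89, 74 and 124 in OXA. The groups did not overlap, at 48.5 ± 6.65 and 95.8 ± 14.9 normalized counts (SD, n = 3), and the log2 fold change was 0.98 (SE 0.22, edgeR adjusted p = 0.0453). It is an intergenic gene on the minus strand (chr3:156747343-156817062) whose start lies 8419 bases from that of LEKR1, and LEKR1 had a log2 fold change of -0.02 (SE 0.28, edgeR adjusted p = 0.974). Both calls were lost when any one of NT libraries 2 and 3 or OXA libraries 1 to 3 was left out. Across these 5 fits the edgeR adjusted p was 0.0897 to 0.149 for LINC00294 and 0.105 to 0.172 for LINC00886, and the share of all genes called was 0.611% to 2.16%.

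**Figure D2:**
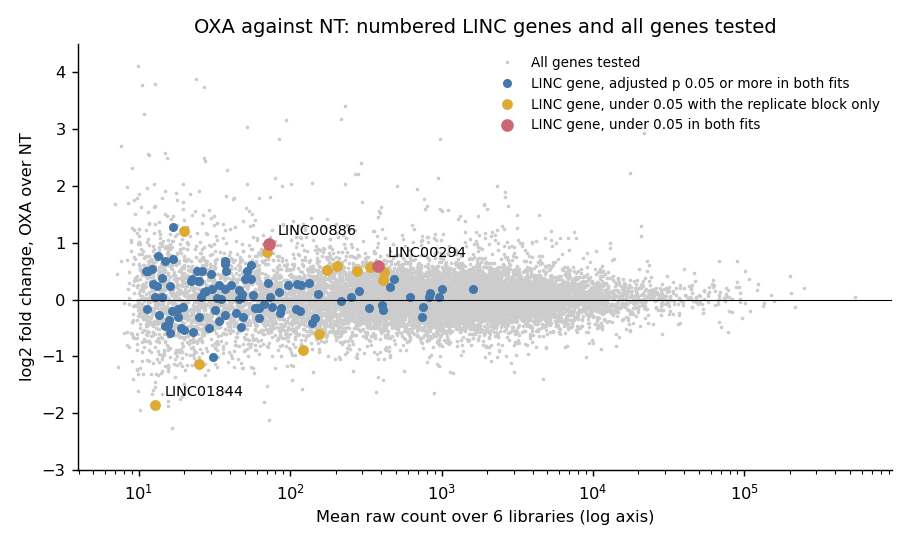
log2 fold change of OXA over NT (edgeR) against the mean raw count over 6 libraries (log axis) for 13727 genes (grey) and the 112 tested LINC genes (colored by the fits in which the adjusted p was under 0.05). LINC00294 and LINC00886 are the 2 genes past the threshold in both fits, the widest LINC values lie at low counts, and 1 gene below -3 is outside the axis.

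NT and OXA libraries of the same number tended to depart from their group means in the same direction, more weakly over the LINC genes. The replicate number was therefore also used as a block. With the block, 10 LINC genes were higher (8.93%, against 12.1% of all genes tested) and 4 lower (3.57%, against 10.9%). The 10 higher included LINC00294 and LINC00886, with edgeR adjusted p of 0.0107 and 0.0195. The genes of the next 3 paragraphs were called with the block and not in the edgeR fit of all libraries with TMM and no block. Some were also called by other alternatives without a block. LINC00662, LINC00857 and LINC02458 were called by DESeq2, and LINC01844 by limma-voom and with upper-quartile normalization factors. LINC00662, LINC00857 and LINC01844 were also called when NT library 1 was left out.

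LINC02273, an RNA studied in breast cancer metastasis, was the higher gene with the largest change, with 15, 13 and 9 raw counts in NT against 31, 29 and 23 in OXA. Every OXA library was above every NT library, and within each group library 3 was the lowest after normalization. The log2 fold change without the block was 1.20 (SE 0.36, edgeR adjusted p = 0.0995, and 0.0290 with the block). The nearest protein-coding gene, FBXW7, a substrate receptor of an SCF ubiquitin ligase and itself a p53 target, lay 210387 bases away and had a log2 fold change of 0.37 (adjusted p = 0.0864 in edgeR, and 0.0161 with the block). LINC00513, which has been studied in interferon signaling, had 63, 53 and 37 raw counts in NT against 95, 86 and 88 in OXA. Here too the groups did not overlap and library 3 was the lowest in each, with a log2 fold change of 0.84 (SE 0.27, edgeR adjusted p = 0.125, and 0.0263 with the block).

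The other 6 higher genes were more abundant and changed less. LINC00623 went from 162 ± 25.4 to 246 ± 40.7 normalized counts (SD, n = 3), a log2 fold change of 0.60, and shares 1251 bases at 99.3% identity with LINC00869, so its counts are uncertain. LINC00662, LINC00460 and LINC00857, RNAs studied in tumor growth, had log2 fold changes of 0.57, 0.52 and 0.49. LINC00857 had 346, 331 and 378 raw counts in NT against 490, 441 and 514 in OXA, with a spread in NT of only 5.35 around 348 normalized counts, and DESeq2 called it together with LINC00662. LINC00346, named PRECSIT for its reported regulation by p53, lay at 362 ± 4.66 normalized counts in NT and 461 ± 4.26 in OXA (SD, n = 3). These SDs, like the NT spread of LINC00857, are below counting error and do not measure precision. The log2 fold change of LINC00346 was 0.35 (SE 0.11, edgeR adjusted p = 0.118, and 0.0384 with the block). LINC01270 had a log2 fold change of 0.50 (SE 0.15, edgeR adjusted p = 0.0995, and 0.0462 with the block). In all 6 the NT and OXA libraries did not overlap.

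Of the 4 lower genes, LINC01844 changed most, with 17, 16 and 28 raw counts in NT against 8, 3 and 5 in OXA. The groups did not overlap, and 1 OXA library was at the floor of 3 counts taken as the limit of detection. Its log2 fold change was -1.86 (SE 0.43, edgeR adjusted p = 0.0539, and 0.0319 with the block). LINC00342 had 20, 40 and 44 raw counts in NT against 7, 21 and 18 in OXA, so that the groups overlapped while library 1 was the lowest of each. It had a log2 fold change of -1.13 (SE 0.45, edgeR adjusted p = 0.196, and 0.0328 with the block), and 3437 of its bases are 96.5% identical to another gene. LINC02458 had 185, 166 and 125 raw counts in NT against 94, 88 and 66 in OXA, without overlap and again with library 3 the lowest of each group. Its log2 fold change was -0.89 (SE 0.28, edgeR adjusted p = 0.115, and 0.00982 with the block). LINC01515 went from 188 ± 17.1 to 124 ± 5.91 normalized counts (SD, n = 3), with a log2 fold change of -0.60 (SE 0.16, edgeR adjusted p = 0.0723, and 0.0262 with the block).

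**Figure D3:**
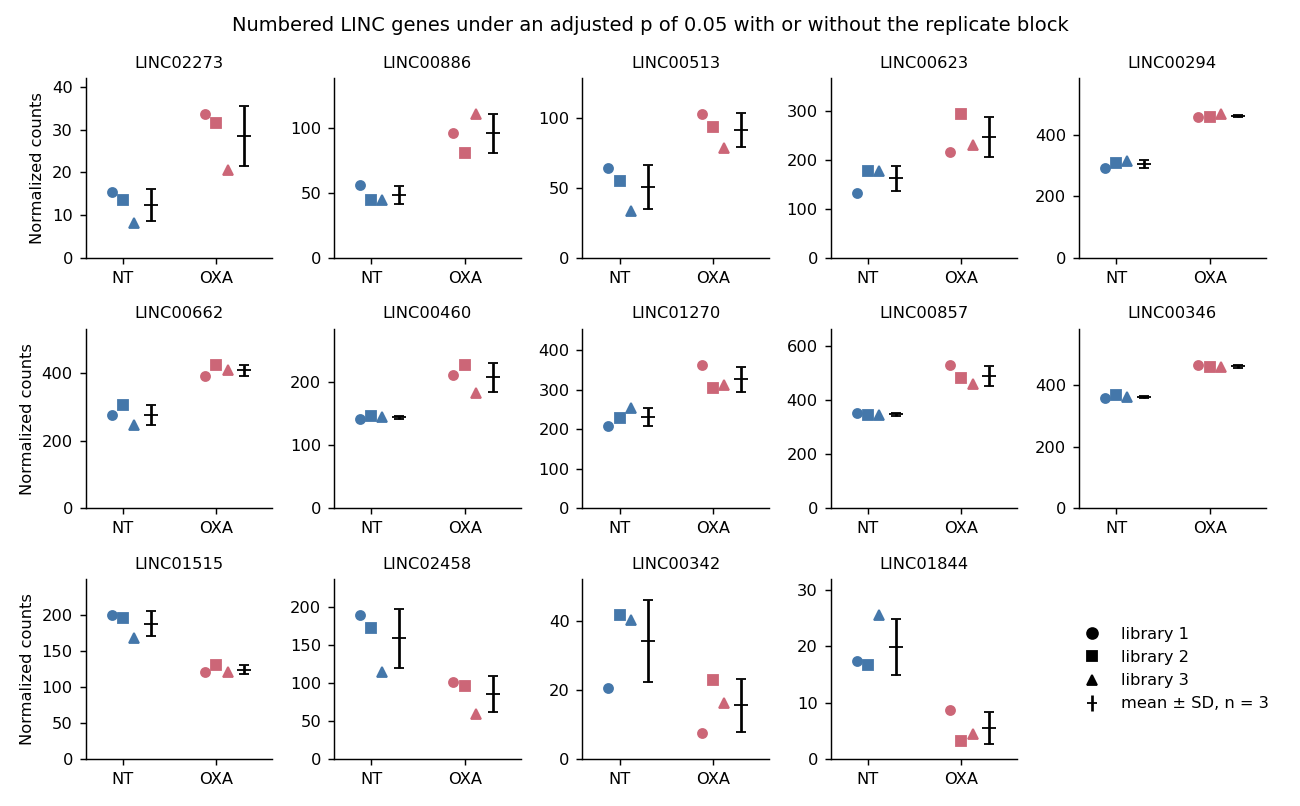
Normalized counts in each library (symbols mark library numbers 1 to 3) for the 14 LINC genes with an edgeR adjusted p under 0.05 with or without the replicate block, with mean ± SD (n = 3) in black. The NT (blue) and OXA (red) libraries do not overlap in 13 of the 14, LINC00342 being the exception. The narrow SDs of LINC00294 and LINC00346 are below counting error in both groups.

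Counted over all tested LINC genes, the OXA libraries lay wholly above the NT libraries in 22 (19.6%, against 14.5% of all genes tested) and wholly below in 12 (10.7%, against 14.4%). The log2 fold change was above 0 in 69 of 112 (61.6%, against 53.3%), with a median of 0.09 against 0.02. Its median size without sign was 0.29 against 0.19, and 15.2% of the LINC genes had a fold change over 1.5 in either direction whatever the p, against 9.7% of all genes. The LINC genes were also less precisely measured, with a median SE of 0.27 against 0.14 on the log2 scale. They had fewer counts as well, with a median mean raw count of 45.9 against 899.5. At like levels the sizes without sign were close. Their medians were 0.330 for LINC genes and 0.354 for all genes under 50 counts, and 0.274 and 0.269 between 50 and 200. From 200 counts up to the highest LINC gene they were 0.186 and 0.188. Other GENCODE lncRNAs had a median size of 0.28. Of the 50 LINC genes sharing exon bases with a gene on the other strand, 36 had a log2 fold change above 0 (72%) and 14 below. Their median was 0.22, and their reads may not have been told apart from those of the other gene. Whether this bears on their sign was not tested. Other subgroups by position, shared bases or exons were small or differed as well. Their shares above 0 ran from 25% of the 12 genes with 1 merged exon to 75% of the 4 overlapping a protein-coding gene on the same strand.

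The share called and the precision both went with the level. Among the 61 tested LINC genes with a mean raw count under 50, 0 were called, against 2.34% of all genes in that range, and their median SE was 0.34 against 0.37. The median coefficient of variation between libraries was 27.7% in NT and 21.4% in OXA. Between 50 and 200 counts, 3.45% of 29 LINC genes and 3.64% of all genes were called, and from 200 counts up to the highest LINC gene 4.55% of 22 and 4.82% of all. The sign did not follow the level in the same way. The log2 fold change was above 0 in 60.7% of the LINC genes under 50 counts (50.1% of all genes there), in 55.2% between 50 and 200 (49.7%) and in 72.7% from 200 counts up (53.6%), and in this last range its median was 0.13 against 0.02. There the block gave calls for 27.3% and 23%, and the median coefficient of variation of the LINC genes was 9.3% in NT and 6.29% in OXA. Other GENCODE lncRNAs had 10 higher and 1 lower of 477 (2.31% called), and protein-coding genes 369 and 313 of 13056 (5.22%). No test of these differences between classes was made.

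The widest changes that passed in neither fit were in low-count genes. LINC01273 had the highest log2 fold change of all, 1.28 (SE 0.40, edgeR adjusted p = 0.117, and 0.0516 with the block), with 6, 15 and 9 raw counts in NT against 25, 25 and 21 in OXA. The groups did not overlap. LINC01119 had 10, 5 and 15 raw counts in NT against 12, 17 and 21 in OXA, which overlapped, with a log2 fold change of 0.77 (SE 0.41, edgeR adjusted p = 0.328). LINC01833 had 30, 45 and 50 raw counts in NT against 22, 12 and 27 in OXA, also without overlap, and a log2 fold change of -1.0 (SE 0.33, edgeR adjusted p = 0.126). LINC02593, LINC00698 and LINC01852 were left out by the filter on low counts. LINC02593 had 8, 22 and 18 raw counts in NT against 3, 3 and 7 in OXA, LINC00698 had 23, 7 and 14 and then 6 in each OXA library, and LINC01852 had 9, 17 and 7 and then 9, 8 and 19. The first 2 of these had lower OXA values throughout, and LINC01852 overlapped.

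For 90 tested LINC genes the protein-coding neighbor was tested as well. The log2 fold changes of the pair had the same sign in 47 of the 90, with a Pearson correlation of 0.18 across the 90 pairs, which share their libraries and in some cases a neighbor. In 8 of the 90 pairs the neighbor had an edgeR adjusted p under 0.05 (8.89%, against 5.22% of protein-coding genes and 5.07% of all genes tested, in either direction). A neighbor shared by several LINC genes was counted in each pair. LINC00294 was the only LINC gene called beside a called neighbor. DUSP6, a phosphatase that inactivates ERK, lies 37669 bases from LINC02458 and fell with a log2 fold change of -0.52 (SE 0.08, edgeR adjusted p = 0.0127). The called neighbors with the largest fall and the largest rise, AGA at -1.04 and ARRDC4 at 0.98 (edgeR adjusted p = 0.0112 and 0.00975), stood beside LINC01098 at -0.38 and LINC00923 at -0.31 (edgeR adjusted p = 0.443 and 0.60).

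The 3 LINC genes near CEBPB, a leucine zipper transcription factor gene on chromosome 20, differed among themselves. LINC01273, 14154 bases away, had a log2 fold change of 1.28, LINC01270 of 0.50 and LINC01271 of 0.03, while CEBPB had 0.31 (SE 0.18, edgeR adjusted p = 0.372, and 0.0542 with the block). LINC01270 and LINC01271 share exon bases on opposite strands. LINC01271 had 17, 26 and 56 raw counts in NT against 19, 36 and 43 in OXA and the groups overlapped. The differences between these 3 genes were not tested.

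**Figure D4:**
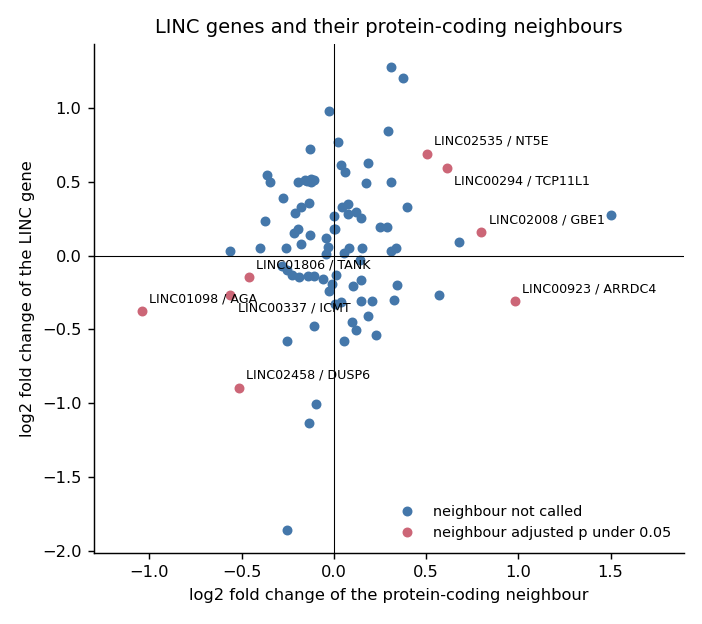
log2 fold change of OXA over NT (edgeR) of 90 LINC genes (vertical axis) against that of the protein-coding neighbor (horizontal axis), with the 8 pairs whose neighbor had an adjusted p under 0.05 in red. The sign was the same in 47 of the 90 pairs, and LINC00294 with TCP11L1 is the pair in which both passed.

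Among 15 numbered LINC genes listed for their study in tumor cell lines, 9 were tested and 1, LINC00294, was higher (11.1%, against 2.78% of all genes tested), with 0 lower (against 2.29%). With the block 4 were higher (44.4%, against 12.1%), adding LINC00460, LINC00662 and LINC00857, and 0 were lower (against 10.9%). The list was written with earlier results of these data known, so these shares are a description. The median log2 fold change of the 9 was 0.20, against 0.02 over all genes tested, and LINC01503 was the only one below 0, at -0.18 (edgeR adjusted p = 0.735). LINC00665, LINC00707 and LINC00958, often named in such work, had at most 4 raw counts in any library, and LINC00261 and LINC01133 had none. Of 7 LINC genes known to encode small peptides, only LINC00467 was in the table under its number, and it had a log2 fold change of 0.05 (SE 0.12, edgeR adjusted p = 0.838). Of 12 lncRNAs linked to p53, none of them under a numbered LINC symbol here, 6 were tested and 0 were higher (against 2.78% of all genes). GAS5, a host of small nucleolar RNAs, was the 1 lower (16.7%, against 2.29%) and fell by 0.55 on the log2 scale (edgeR adjusted p = 0.0214). With the block MIR34AHG, the host gene of miR-34a, and NORAD were higher (33.3%, against 12.1%), with edgeR adjusted p of 0.0161 and 0.0196. Without it their log2 fold changes were 1.09 and 0.28 (edgeR adjusted p = 0.0539 and 0.119). PURPL had the largest log2 fold change of the 6, at 1.42 (SE 0.69, edgeR adjusted p = 0.283, and 0.103 with the block). Its raw counts were 6, 2 and 19 in NT against 9, 25 and 37 in OXA, which overlapped.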

How the data were processed

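Polyadenylated RNA of 3 NT and 3 OXA samples was sequenced in stranded libraries. The submitters' notes name Trimmomatic 0.32, STAR 2.7.5b, RSEM 1.3.3, DESeq2 2.13 and GRCh38. The gene annotation and the strand setting are not given in the sources used here. The authors deposited estimated counts per gene and library, all of them whole numbers and used unchanged, and a normalized signal, equal to the count times a factor that varied between genes (0.79 to 1.51 at percentiles 1 and 99 in NT library 1, genes over 50 counts), used for 1 alternative only. Groups came from the sample labels.

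Genes were filtered with filterByExpr (minimum count of 10 and minimum total of 15, 13727 genes kept), normalized by TMM and compared with edgeR 4.0.16 (quasi-likelihood test, R 4.3.3, limma 3.58.1), with Benjamini-Hochberg adjustment over all of them. Normalized counts are TMM-normalized counts, and a call is an adjusted p under 0.05. The SE is the log2 fold change divided by the square root of F. Depth was 32979521 to 40967880 counts, and counts of 3 or fewer were taken as the floor of detection. PCR duplicates could not be told apart, so the true error may exceed counting error. Positions came from GENCODE 44 by Ensembl ID (115 of 115 matched), near-identical stretches from BLAST+ 2.17.0 and promoters from RefSeq. The steps were tested on simulated data.

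Same-numbered NT and OXA libraries had correlated deviations (0.547, 0.542 and 0.307 over all genes tested, against -0.467 to 0.0904 for other pairs). Over the LINC genes these correlations were 0.269, 0.35 and 0.211, against -0.292 to 0.0123 for other pairs. The replicate numbers come from the labels, which do not say what they stand for. Fits with the replicate number as a block are therefore given where they change a call or a count.

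Named are the LINC genes past the threshold in either fit, the 10 most abundant, the 5 highest per kb and the 5 highest and 5 lowest fold changes. Also named are the listed genes, those next to the limit of the choice and those without a library over 3 counts in a group. The nearest protein-coding gene was planned for every LINC gene past the threshold in either fit, but is given for only some of them. The other neighbors, LINC01271, LINC00672, LINC01852 and the genes with a p53 half-site were named after their values were seen. The members, lists, count ranges and motifs were chosen with earlier results of these data known. Alternatives were other normalization factors, filters and tools (DESeq2 1.42.0, limma-voom, limma on log2(signal + 1) with a pseudocount of 1), the block, other limits for the choice and each library left out.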

Additional observations from a re-analysis of the deposited data

How the results depend on the processing

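The count of 2 higher LINC genes became 0 without a filter on low counts and 0 with limma on the authors' values, 4 with DESeq2 and 10 with the replicate block. The count of 0 lower became 1 with upper-quartile factors, 1 with DESeq2, 1 with limma-voom and 4 with the replicate block. With 1 library left out, 0 to 4 were higher and 0 to 2 lower. The 4 and 2 came without NT library 1, when 8.6% of all genes were called instead of 5.07%, and each of the 5 other fits gave 0 and 0. The median log2 fold change of 0.09 (spread between libraries 0.02) moved to 0.048 with upper-quartile factors, 0.053 without a filter, 0.11 with limma-voom, 0.13 with the authors' values and 0.055 for genes with a mean of 10 or more in NT alone, and lay between 0.039 and 0.13 with 1 library left out. Its sign held in every alternative run. The median over all genes tested moved as well, from 0.023 to -0.016 with upper-quartile factors, -0.00084 without a filter and 0.034 with limma-voom. With the authors' values it was 0.023. DESeq2 gave no adjusted p for 28 of the 115. The cause of these differences was not tested. Of 386 alternative values of the 28 named tested genes, 5 reversed their sign, in 3 genes with edgeR adjusted p over 0.8: LINC00963 lay between -0.14 and 0.18 with 1 library left out, LINC01128 between -0.017 and 0.088, and LINC00467 between -0.018 and 0.13. LINC00294 kept a log2 fold change of 0.55 to 0.60 with 1 library left out and LINC00886 of 0.83 to 1.10, and each was called in 7 of 14 alternatives. The median SE under 50 counts was 0.34 for the LINC genes, with 0% called, and 0.37 for all genes, with 2.34% called.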
